A study of Homo sapiens with 6 samples.

Results

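The negative feedback and ETV output genes of the MAP kinase pathway were followed in PC9 cells with and without knockdown of RBM10. The set holds 10 of the 16306 genes in the gene table, chosen by symbol: the phosphatases DUSP4, DUSP5 and DUSP6, the Sprouty genes SPRY1, SPRY2 and SPRY4, the SPRED genes SPRED1 and SPRED2, and the ETS transcription factors ETV4 and ETV5. PC9, the human lung adenocarcinoma line behind all 6 libraries, carries an exon 19 deletion in EGFR. In 3 libraries the cells held the control shRNA sh-NC, and in the other 3 an shRNA directed at the splicing regulator RBM10 (shRBM10). The labels do not name which RBM10 shRNA was used and do not say whether libraries came from separate cultures, so p-values measure only the spread between these libraries, which may be technical.

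In a cell driven by mutant EGFR, the receptor signals through RAS, RAF and MEK to the kinase ERK. Active ERK switches on genes that restrain the same route: the dual-specificity phosphatases remove the activating phosphates from ERK, while Sprouty and SPRED proteins act upstream, between the receptor and RAS or RAF. ERK also relieves repression by Capicua, a DNA-binding repressor that holds ETV4, ETV5 and several of the feedback genes down. The transcripts of these genes are therefore widely read as a gauge of ERK output, and the comparison asks whether that gauge differed after RBM10 knockdown. The files hold transcripts only, and no phosphorylated ERK.

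The deposited estimated counts summed to between 16606390 and 18864243 per library. Values below are counts scaled to a common library size by edgeR's TMM method ("normalized counts"). RBM10 itself was at 1418, 1172 and 1455 normalized counts in sh-NC replicates 1 to 3, against 532, 509.6 and 666 in the shRBM10 libraries, called A to C. No overlap was seen, with a log2 fold change of -1.24 (SE 0.23, adjusted p = 0.1 by edgeR's quasi-likelihood test, 0.00154 to 0.454 over the alternatives). The libraries of a group were not alike: sh-NC replicate 2 stood apart from replicates 1 and 3 (chi-square per degree of freedom of 165 and 171, against 3 between replicates 1 and 3). By the same measure shRBM10 library C was nearer to sh-NC replicates 1 and 3 (31 and 31.5) than to libraries A and B (102 and 56.1). In libraries A and B the counts also followed GC content, so that genes of the lowest GC quartile were shifted by a median of 1.13 and 0.83 on the log2 scale and those of the highest quartile by -0.54 and -0.4. Library C was shifted by 0.12 and -0.04 only. Among the controls, sh-NC replicate 2 was shifted the other way, by -0.23 and 0.08. Replicate 1 was shifted by 0.11 and -0.03 and replicate 3 by 0.12 and -0.05. All these shifts are from the sh-NC mean, which includes replicate 2. For each of the 10 genes the log2 fold change is also given without sh-NC replicate 2 and with each library's GC trend removed. Without replicate 2 the only controls are replicates 1 and 3, the closest pair of all libraries. The spread between controls is then small, so p-values from that fit may be too low and groups separate more readily.

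All 8 markers of lung adenocarcinoma epithelium were in the table, with a summed level of 558200 to 1012325 normalized counts in sh-NC and 451167 to 656318 in shRBM10. Keratin 18 and EPCAM were high in every library, and NKX2-1, a lineage factor of lung adenocarcinoma, was at 0 to 2.03. Because the label text on extraction speaks of retinas, retinal genes were looked up as well. CRX was at 0 to 3.05, and the sum over CRX, NRL and PDE6A was 96.5 to 165 in sh-NC and 78.8 to 102 in shRBM10, most of it NRL. Summed markers were 40.7 to 102 and 98.6 to 177 for fibroblasts, 99 to 186 and 48.8 to 68.3 for endothelium, and 1863 to 3312 and 1799 to 2312 for leukocytes in sh-NC and shRBM10, the last almost all CD68, while PTPRC stayed at or below 6.64. Of these lists, the endothelial genes CDH5 and VWF were lower after knockdown and the retinal gene PDE6A higher (unadjusted p under 0.05), and no gene of the other lists passed. Their part in the results was not tested. In bulk RNA, fewer cells of a type and less RNA per cell cannot be told apart.

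The promoter table of RefSeq (GRCh38.p14) holds 6 of the 10 genes: DUSP6, SPRY1, SPRY2, SPRY4, SPRED1 and SPRED2. The sequences of DUSP6 and SPRY2 are printed here as the 250 bases before the start. DUSP6 was the only one of these 6 genes with a Capicua octamer, of a form added to the search after the sequences had been seen. SPRY2 was the only one whose counts separated the groups. Matches to the motifs searched are in capitals. The DUSP6 sequence lies at chr12:89352502-89352751 on the minus strand and the SPRY2 sequence, for the first of 3 listed starts, at chr13:80341127-80341376 on the minus strand.
DUSP6: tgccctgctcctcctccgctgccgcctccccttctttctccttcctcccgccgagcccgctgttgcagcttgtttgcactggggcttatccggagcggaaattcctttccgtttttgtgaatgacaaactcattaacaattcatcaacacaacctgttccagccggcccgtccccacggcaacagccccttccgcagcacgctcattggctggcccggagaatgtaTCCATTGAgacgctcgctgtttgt
SPRY2: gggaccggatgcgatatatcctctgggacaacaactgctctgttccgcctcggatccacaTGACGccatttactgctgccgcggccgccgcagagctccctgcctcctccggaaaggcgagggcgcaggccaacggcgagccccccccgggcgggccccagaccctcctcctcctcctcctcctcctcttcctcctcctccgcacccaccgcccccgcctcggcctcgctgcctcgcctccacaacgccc

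Both strands were searched over 300 bases, the last 50 of them after the start, for the Capicua octamers TGAATGAA, TGAATGGA, TCAATGAA and TCAATGGA, the CRE TGACGTCA and its shorter form TGACG (which every CRE contains), the AP-1 motif TGANTCA and the ETS motif CCGGAAGT. TCAATGAA and TCAATGGA were added after the sequences had been seen, and the octamers set beforehand, TGAATGAA and TGAATGGA, were not found. The shares printed for the DUSP6 octamer therefore describe how common it is and test nothing. DUSP6 held TCCATTGA, the reverse complement of TCAATGGA, with its first base 24 bases before the start, and the same octamer again with its first base at position 2 after it. Among all 35116 promoters, 0.51% held TCAATGGA, 3.77% held any of the 4 octamers and 0.327% held 2 or more. SPRY2 held this shorter form with its first base 190 bases before the start, SPRY4 held it 68 bases before and SPRED2 31 bases after, a motif that 24.6% of all promoters held. The second start of SPRED2 held TGACTCA from 6 bases before the start and TGAATCA from 35 bases after it, and 7.71% of promoters held the AP-1 motif. The other motifs were held by 1.65% (TGAATGAA), 1.03% (TGAATGGA), 0.718% (TCAATGAA), 1.85% (the full CRE) and 4.14% (the ETS motif) of promoters and were not found in these windows. SPRY1 and SPRED1 matched none of the motifs. A match describes letters and does not show binding.

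Compared by TPM, a measure per transcript length, ETV4 and DUSP4 were the most abundant of the genes in sh-NC. ETV4 was at 58, 34.4 and 53.2 TPM in replicates 1 to 3 (mean 48.5 ± 12.5, SD, n = 3) and DUSP4 at 54.5, 19.4 and 56.9 (43.6 ± 21). ETV5 (20.2 ± 7.94), DUSP5 (17.5 ± 5.53), DUSP6 (16.8 ± 6.39) and SPRED2 (12.6 ± 7.54) followed, then SPRY2 (8.16 ± 3.67), SPRY4 (4.06 ± 2.22), SPRED1 (1.91 ± 1.25) and SPRY1 (0.84 ± 0.242). Every gene had its lowest sh-NC TPM in replicate 2, but TPM takes no TMM scaling and the TMM factor of that library was 0.738. In normalized counts replicate 2 was the lowest control for 7 of the 10 genes and the highest for ETV4, DUSP5 and SPRY1. The ranges of all 9 neighbouring pairs in this order overlapped, and 4 of the pairs (DUSP4 over ETV5, DUSP6 over SPRED2, SPRY2 over SPRY4 and SPRY4 over SPRED1) kept their order in each of the 3 replicates. In shRBM10 library A the order was headed by DUSP4 at 53.7 TPM, with ETV4 at 29, and the authors' mean TPM over shRBM10 was 45.5 for DUSP4 and 33.1 for ETV4.

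**Figure D1:**
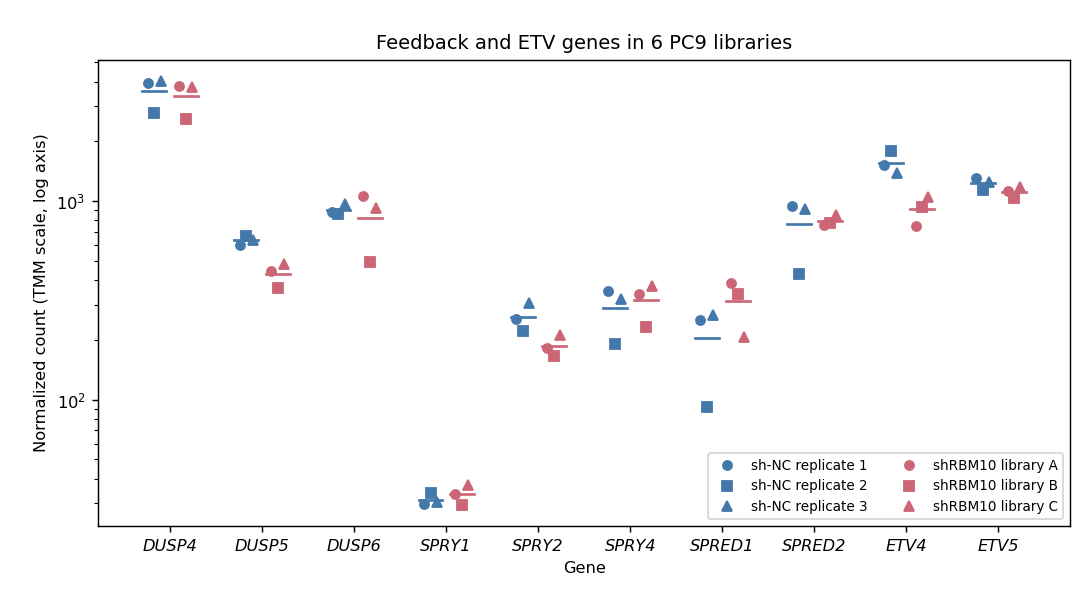
Normalized counts of the 10 genes (horizontal axis) in each library, on a log vertical axis, with sh-NC in blue, shRBM10 in red, 1 symbol per library and a line at each group mean. The groups separate for DUSP5, SPRY2 and ETV4 and overlap for the other genes, and library B is the lowest of the 6 for 6 genes.

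By edgeR, 0 of the 10 genes passed an adjusted p under 0.05 with an absolute log2 fold change over 1, against 2 of the 12620 genes tested (0.0158%). DESeq2 also called 0 of the 10, against 573 of 12129 genes with an adjusted p (4.72%), and limma-voom 0, against 2 of 12620 (0.0158%). At an unadjusted p under 0.05, 2 of the genes, ETV4 and DUSP5, were lower after knockdown, beside 8.60% of all genes tested, and 0 were higher, beside 15.7%. DESeq2 and limma-voom also gave 2 lower, beside 8.79% and 8.08% of all genes, and 0 higher, beside 17% and 13.9%. For 3 genes, ETV4, DUSP5 and SPRY2, every shRBM10 library was below every sh-NC library, beside 16.2% of all genes, and 0 separated the other way, beside 13.8%. Over the 10 genes the log2 fold changes had a median of -0.10, with 6 below 0 and 4 above it, and over all genes 0.03. Among 10 genes, the background shares of 8.60% and 16.2% amount to about 1 and 2 genes.

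ETV4, an ETS factor of the PEA3 group, gave the smallest p of the set. The gene (Entrez gene 2118) lies on chromosome 17, from 43527844 to 43579620 on the minus strand of GRCh38 in GENCODE release 29. It was at 1517, 1780 and 1391 normalized counts in sh-NC replicates 1 to 3, against 745, 936 and 1047 in A to C. The highest shRBM10 library lay below the lowest control (p = 0.1 by a two-sided exact permutation test, which can give no smaller p with 3 against 3). Means were 1563 ± 198 and 909 ± 152 (SD, n = 3), a log2 fold change of -0.78 (SE 0.23, 95% interval -1.30 to -0.27, unadjusted p = 0.00712, adjusted p = 0.153 by edgeR's quasi-likelihood test, 0.0522 to 0.566 over the alternatives). It was -0.76 without sh-NC replicate 2 and -0.53 with the GC trend removed (unadjusted p = 0.00549 and 0.00978 by edgeR). ETV4 has a GC content of 59.8%, in the highest quartile of genes, and lay -1.06, -0.73 and -0.57 from the sh-NC mean on the log2 scale in A, B and C, while its quartile had medians of -0.54, -0.4 and -0.04. The part of the GC trend in this difference was not tested.

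ETV5, the close relative of ETV4 and likewise held down by Capicua, did not separate. Its normalized counts were 1312, 1142 and 1242 in sh-NC, against 1121, 1034 and 1183 in shRBM10. Libraries A and B were below every sh-NC library, and C lay within the sh-NC range. The log2 fold change was -0.15 (SE 0.21, 95% interval -0.61 to 0.31, adjusted p = 0.652 by edgeR), which allows a decrease about as large as the fitted decrease of DUSP5 below. Without sh-NC replicate 2 it was -0.28, and the groups then did not overlap, and with the GC trend removed it was -0.24.

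Among the phosphatases, DUSP5, which acts on ERK in the nucleus, was lower in shRBM10. The gene (Entrez gene 1847) lies on chromosome 10, 110497838 to 110511544 on the plus strand of GRCh38. Its normalized counts were 601, 666 and 636 in sh-NC, against 444, 363 and 479.5 in shRBM10. The groups did not overlap, and the controls lay close together, at 634 ± 32.5 against 429 ± 60 (SD, n = 3, exact permutation p = 0.1). The log2 fold change was -0.56 (SE 0.23, 95% interval -1.09 to -0.04, unadjusted p = 0.0373, adjusted p = 0.191 by edgeR, 0.0754 to 0.574 over the alternatives). It was -0.61 without sh-NC replicate 2 and -0.40 with the GC trend removed. In the 3 shRBM10 libraries DUSP5 lay -0.51, -0.80 and -0.40 from the sh-NC mean on the log2 scale.

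DUSP6, the cytoplasmic ERK phosphatase and a standard marker of ERK output, had groups that overlapped. The gene (Entrez gene 1848) lies on chromosome 12 from 89347232 to 89353271 on the minus strand. It was at 879, 863 and 966 normalized counts in sh-NC and at 1056, 492 and 927 in shRBM10. Library A was the highest of the 6, B by far the lowest, and C lay among the controls. The means were 903 ± 55.6 and 825 ± 295 (SD, n = 3), with a log2 fold change of -0.13 (SE 0.29, 95% interval -0.79 to 0.53, adjusted p = 0.787 by edgeR). The sign rests on library B: without it the log2 fold change was 0.13. It was -0.25 without sh-NC replicate 2 and -0.09 with the GC trend removed. An antisense gene of GENCODE release 29 shares up to 1632 exonic bases with DUSP6, and since no source gives the strand setting of the counting, reads of the pair could not be told apart.

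DUSP4, a nuclear phosphatase of ERK and other MAP kinases, had the highest counts of the set. It was at 3917, 2771 and 4026 normalized counts in sh-NC and at 3803, 2582 and 3776 in shRBM10. In each group 1 library, sh-NC replicate 2 and shRBM10 B, was well below the rest, and the groups overlapped. The log2 fold change was -0.08 (SE 0.26, 95% interval -0.65 to 0.50, adjusted p = 0.862 by edgeR). Without sh-NC replicate 2 it was -0.31, every shRBM10 library then being below both controls, and without library B it was 0.08. Removing the GC trend gave -0.00.

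Of the Sprouty genes, which block the route from receptor tyrosine kinases to ERK, SPRY2 was lower in all 3 knockdown libraries. The gene (Entrez gene 10253) lies on chromosome 13 from 80335976 to 80340951 on the minus strand. Its normalized counts were 255, 222 and 307 in sh-NC, against 182, 165 and 211 in shRBM10. The groups did not overlap, though the gap between 211 and 222 was small (exact permutation p = 0.1). The log2 fold change was -0.49 (SE 0.27, 95% interval -1.10 to 0.12, unadjusted p = 0.103, adjusted p = 0.274 by edgeR, 0.0623 to 0.610 over the alternatives). With the GC trend removed it was -0.83 and without sh-NC replicate 2 it was -0.68 (unadjusted p = 0.0126 and 0.0213). SPRY2 has a GC content of 46.8%, beside 50.6% for the median gene.

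SPRY4 was at 353, 189.9 and 322 normalized counts in sh-NC and at 342, 233 and 375 in shRBM10. The highest value was in library C and the lowest in sh-NC replicate 2, with the groups overlapping. Its log2 fold change of 0.13 (SE 0.32, 95% interval -0.59 to 0.85, adjusted p = 0.804 by edgeR) turned to -0.17 without sh-NC replicate 2 and was 0.28 with the GC trend removed. SPRY1 had the lowest counts of the set, at 29.6, 33.9 and 30.4 after normalization in sh-NC, against 33.6, 29.4 and 37.1 in shRBM10. Its groups overlapped and its log2 fold change was 0.09 (SE 0.30, 95% interval -0.57 to 0.76, adjusted p = 0.853 by edgeR), or 0.07 without sh-NC replicate 2 and -0.25 with the GC trend removed.

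The SPRED proteins bring neurofibromin to the membrane, where it switches RAS off. SPRED1 was the only gene of the set with a positive log2 fold change above 0.5 and had the widest interval. It was at 252, 92.2 and 266 normalized counts in sh-NC and at 388, 339 and 207 in shRBM10. Libraries A and B were above every control, C was below 2 of the 3, and sh-NC replicate 2 was far below the rest. The log2 fold change was 0.61 (SE 0.42, 95% interval -0.33 to 1.55, adjusted p = 0.360 by edgeR). It was 0.18 without sh-NC replicate 2, -0.02 with the GC trend removed, and -0.30 with both. SPRED1 has the lowest GC content of the set, 41.9%, in the lowest quartile of genes, and lay 1.08, 0.88 and 0.18 from the sh-NC mean on the log2 scale in A, B and C, beside 1.13, 0.83 and 0.12 for the median of that quartile.

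SPRED2 was at 945, 429 and 915 normalized counts in sh-NC and at 761, 778 and 851 in shRBM10. The knockdown libraries lay between sh-NC replicate 2 and the other controls. The log2 fold change was 0.06 (SE 0.31, 95% interval -0.63 to 0.75, adjusted p = 0.909 by edgeR) with all libraries. It was -0.31 without sh-NC replicate 2, when the groups did not overlap, and 0.05 with the GC trend removed.

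**Figure D2:**
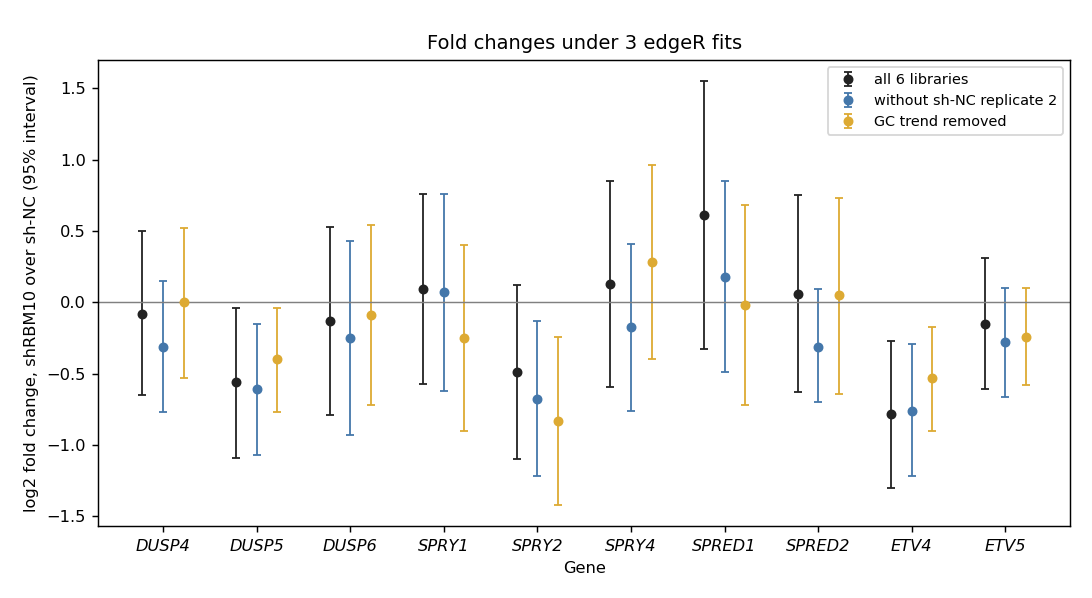
Log2 fold change of shRBM10 over sh-NC (vertical axis) for the 10 genes, with 95% intervals, from edgeR with all 6 libraries (black), without sh-NC replicate 2 (blue) and with each library's GC trend removed (yellow). The intervals of ETV4 and DUSP5 lie below 0 in all 3 fits, that of SPRY2 does so in the last 2, and those of the other 7 genes include 0 throughout.

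Leaving out sh-NC replicate 2 or library B moved the median of the set more than leaving out any other library did, in opposite directions. In sh-NC, replicate 2 had the lowest normalized count for 7 of the 10 genes, and in shRBM10 library B did so for 7. The median of the 10 genes lay 0.03, -0.16 and 0.15 from the sh-NC mean on the log2 scale in sh-NC replicates 1 to 3, against 0.09, -0.35 and 0.07 in A, B and C. The median log2 fold change was -0.29 without sh-NC replicate 2 (0.02 for all genes) and 0.08 without library B (0.05 for all genes). In the fit without sh-NC replicate 2, 6 genes (DUSP4, DUSP5, SPRY2, SPRED2, ETV4 and ETV5) were lower without overlap, beside 28.5% of all genes, with 0 higher, beside 18.3%. At an unadjusted p under 0.05, edgeR then gave 3 lower genes, ETV4, DUSP5 and SPRY2, beside 12.7% of all genes, and 0 higher, beside 11.6%. With the GC trend removed it gave the same 3, beside 11.0% of genes, and 0 higher, beside 7.70%. No gene of the set passed the adjusted threshold in either fit.

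**Figure D3:**
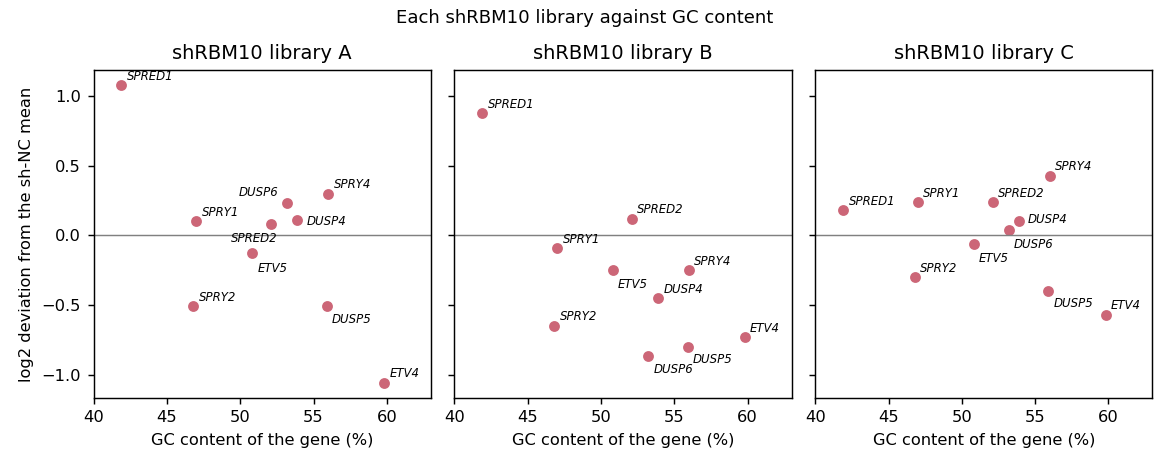
Log2 deviation of each gene from its sh-NC mean (vertical axis) against the GC content of the gene in percent (horizontal axis), 1 panel for each shRBM10 library. SPRED1, at 41.9% GC, stands at 1.08 and 0.88 in A and B but at 0.18 in C, while ETV4, DUSP5 and SPRY2 lie below 0 in all 3 panels.

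Across the 6 libraries DUSP6 was most like 5 genes outside the set among 11071 with a mean count of at least 50. Likeness was the root mean square difference of log2 normalized counts after centring each gene on its own mean. ST3GAL2, LRCH3, KIAA0895L and ZNF70 differed from DUSP6 by 0.17 and PHLDA1 by 0.18, and all 5 had their lowest value in library B. Within the set DUSP4 came nearest to DUSP6, at 0.22 and rank 26, and SPRED1 was farthest, at 0.80 and rank 9368. The most alike pairs of the set were DUSP5 with SPRY2, SPRY1 with ETV5 and DUSP4 with SPRY4, each at 0.17. These are descriptions over 6 libraries that share depth and GC trends.

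Since RBM10 regulates splicing, the share of each gene's counts given to each RefSeq transcript was compared as well. By edgeR's diffSpliceDGE, 0 of the 7 genes with at least 2 transcripts to test were called, against 8 of 8348 genes (0.0958%), and their Simes p ranged from 0.435 to 0.987, none under an unadjusted 0.05. DUSP5 and ETV5 have 1 transcript in the table, and SPRY2 kept 1 after the filter. DUSP4 was carried almost whole by NM_001394 (99.5% of its counts over all libraries), DUSP6 by NM_001946 (96.9%) and SPRY2 by NM_005842 (92.2%). These shares hardly varied between libraries, the largest range being 88.4% to 95.4% for SPRY2.

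ETV4 was split among 4 transcripts with at least 5% of its counts. NM_001261438 had 34.9%, 26% and 24.1% in sh-NC, against 23.8%, 22.5% and 16.9% in shRBM10. The shRBM10 libraries were all below the controls, yet the relative log2 change of -0.31 gave an unadjusted p of 0.384 in that fit. NM_001986 held 25.4%, NM_001079675 24.9% and NM_001261437 13.3% over all libraries, each with overlapping groups. In SPRED2, the predicted transcript XM_005264201 held 1.61%, 8.52% and 6.45% in sh-NC and 13.8%, 20.1% and 5.15% in shRBM10. Library C was within the controls, and the relative log2 change of 0.96 gave an unadjusted p of 0.145. NM_181784 held 72.2% of SPRED2 and NM_001128210 17.1%.

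SPRY4 was mostly NM_001127496 (84.5%), with XM_017009910 at 6.58% and NM_030964 at 5.03%. SPRED1 was divided between NM_152594 (57.1%) and XM_005254202 (42.5%), with groups that overlapped. For SPRY1 the division between NM_001258039 (45.4%), NM_005841 (29.1%) and NM_001375410 (25.5%) swung widely within each group, from 0% to 72% for NM_005841 in sh-NC alone, over a gene with 29.4 to 37.1 normalized counts in all.

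The genes on either side of the feedback set were read from 5 lists, none of which had a gene called at the adjusted threshold by edgeR with all 6 libraries. DESeq2, which called 4.72% of all genes, called DUSP1, DUSP8 and FOSL1 lower (adjusted p = 0.0364, 0.0181 and 0.000143). It called FRS2 and EHF higher (adjusted p = 0.0374 and 0.0392). The largest adjusted p of each of these genes over the alternatives was between 0.452 and 0.566. The other MAP kinase phosphatases had a median of -0.41 over 7 genes, or -0.72 without sh-NC replicate 2, with 3 lower and 0 higher at an unadjusted p under 0.05 (beside 8.60% and 15.7% of all genes). DUSP1, the immediate-early phosphatase of p38, JNK and ERK, was at 1291, 1346 and 1421 normalized counts in sh-NC and at 652, 334 and 863 in shRBM10. Its groups lay far apart, with a log2 fold change of -1.13 (SE 0.33, adjusted p = 0.153 by edgeR, 0.0364 by DESeq2). DUSP8 (-1.18) and DUSP9 (-1.03) also had groups that did not overlap, and so, in the other direction, did DUSP10 (0.30, unadjusted p = 0.249 by edgeR), named after its values were seen. Once the GC trend was removed DUSP1 was at -1.02, DUSP8 at -0.88, DUSP9 at -0.69 and DUSP10 at -0.15.

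Of 10 tested other ERK output genes, 4 were lower and 1 higher at an unadjusted p under 0.05 (beside 8.60% and 15.7% of all genes), with a median of -0.41, or -0.64 without sh-NC replicate 2. FOSL1, which encodes the AP-1 subunit FRA1, had the smallest p. It was at 1468, 1569 and 1406 normalized counts in sh-NC and at 543, 518 and 675 in shRBM10, with no overlap. Its log2 fold change was -1.36 (SE 0.22, adjusted p = 0.0894 by edgeR and 0.000143 by DESeq2). Without sh-NC replicate 2 it was -1.39 and FOSL1 was called (adjusted p = 0.0487 by edgeR), against the closely alike replicates 1 and 3 alone. With the GC trend removed the log2 fold change was -1.10. The others, named after their values were seen, were MYC (-0.88), EPHA2 (-0.81) and HBEGF (-0.68), which were lower, and EPHA4 (0.80), which was higher. Removing the GC trend put them at -0.67, -0.58, -0.76 and 0.60, and EPHA4 then had an unadjusted p of 0.0793 by edgeR. In that fit 5 genes of the list were lower and 1 higher, beside 11.0% and 7.70% of all genes. The higher gene was CCND1, named after its values were seen, at 0.87 (unadjusted p = 0.0265 by edgeR). With all libraries CCND1 was higher without overlap, at 0.67 (unadjusted p = 0.0501 by edgeR). Without sh-NC replicate 2 it was at 0.32. EPHA4 was at 0.46 without sh-NC replicate 2 (unadjusted p = 0.111 by edgeR). In the same fit MYC was at -1.07, EPHA2 at -1.04 and HBEGF at -0.86 (unadjusted p = 0.000861, 0.00266 and 0.0118 by edgeR). ETV1, the third PEA3 factor, was at 7.12 normalized counts or less and was not tested.

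Of 24 genes for the core of the cascade, from EGFR to ERK and its RSK kinases, 3 were higher and 2 lower at an unadjusted p under 0.05. Of all genes 15.7% were higher and 8.60% lower, which amounts to about 4 and 2 of 24. The median of this list was 0.40, or 0.02 with the GC trend removed and 0.08 without sh-NC replicate 2. EGFR was at 12210, 2564 and 13051 normalized counts in sh-NC and at 14768, 12674 and 10490 in shRBM10. Apart from sh-NC replicate 2, where EGFR was lowest, the groups overlapped, and its log2 fold change of 0.45 (SE 0.50, adjusted p = 0.570 by edgeR) was -0.08 without that replicate. The adaptor FRS2 (1.39) and the RAS exchange factor SOS2 (1.51) were higher, with GC contents of 44.6% and 38.3% and log2 fold changes of 0.81 and 0.80 (unadjusted p = 0.0252 and 0.106 by edgeR) once the GC trend was removed. They were at 1.05 and 0.98 without sh-NC replicate 2. ERBB3 (0.57) was higher and HRAS (-0.84) and RPS6KA1 (-0.53) lower, these 3 being named after their values were seen. Without sh-NC replicate 2 ERBB3 was at 0.32 (unadjusted p = 0.107 by edgeR), HRAS at -0.79 and RPS6KA1 at -0.58 (unadjusted p = 0.0103 and 0.0268 by edgeR). With the GC trend removed ERBB3 was at 0.58 (unadjusted p = 0.0226 by edgeR), HRAS at -0.52 and RPS6KA1 at -0.35. MAP2K1, also named after its values were seen, was lower without overlap, at -0.43 (unadjusted p = 0.0804 by edgeR). It was at -0.62 without sh-NC replicate 2 and -0.65 with the GC trend removed (unadjusted p = 0.00718 and 0.0129 by edgeR).

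Of 15 other negative regulators, 1 was higher and 0 lower at an unadjusted p under 0.05 (beside 15.7% and 8.60% of all genes). Their median was 0.35, or 0.37 with the GC trend removed and 0.27 without sh-NC replicate 2, with 13, 10 and 8 genes above 0. The 1 higher gene was RASA2, a GTPase-activating protein for RAS, at 1.25 in the full fit, and its groups overlapped. It was at 0.96 without sh-NC replicate 2 and 0.45 with the GC trend removed (unadjusted p = 0.0554 and 0.0811 by edgeR). Of 15 genes for Capicua and other ETS factors, 4 were higher and 1 lower at an unadjusted p under 0.05 (beside 15.7% and 8.60% of all genes), with a median of 0.32. With the GC trend removed 1 was higher and 3 lower (beside 7.70% and 11.0% of all genes), with a median of -0.01. CIC, which encodes Capicua, was at 1110, 678 and 1135 normalized counts in sh-NC and at 577, 736 and 1062 in shRBM10. The groups overlapped, and the log2 fold change was -0.30 (SE 0.30, adjusted p = 0.527 by edgeR) or -0.01 with the GC trend removed. Without sh-NC replicate 2 it was -0.58 (unadjusted p = 0.0589 by edgeR). The ETS factors EHF (1.47) and ELF1 (1.13) were higher without overlap, as were GABPA (0.95), ETV3 (0.81) and ETV6 (0.32, unadjusted p = 0.256 by edgeR). ERF (-0.63), ELK1 (-0.50) and ETS2 (-0.37) were lower without overlap (unadjusted p = 0.0236, 0.065 and 0.108 by edgeR). These 5 higher and 3 lower genes stand beside 13.8% and 16.2% of all genes. All of them but EHF and ELF1 were named after their values were seen. After removal of the GC trend EHF was at 1.18, ELF1 at 0.65, GABPA at 0.16, ETV3 at 0.28 and ERF at -0.36, and ELF1, GABPA and ETV3 no longer passed (unadjusted p = 0.0762, 0.402 and 0.251 by edgeR). The 3 lower genes in that fit were ERF, ETS1 (-0.79) and ETS2 (-0.39), with unadjusted p = 0.0498, 0.0245 and 0.035 by edgeR. ETS1 was also named after its values were seen. ELF1 was at 0.71 and ETV3 at 0.48 without sh-NC replicate 2 (unadjusted p = 0.0375 and 0.0865 by edgeR). In the same fit EHF was at 1.03, GABPA at 0.72, ERF at -0.58 and ETS2 at -0.53 (unadjusted p = 0.0293, 0.0453, 0.0182 and 0.0147 by edgeR).

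**Figure D4:**
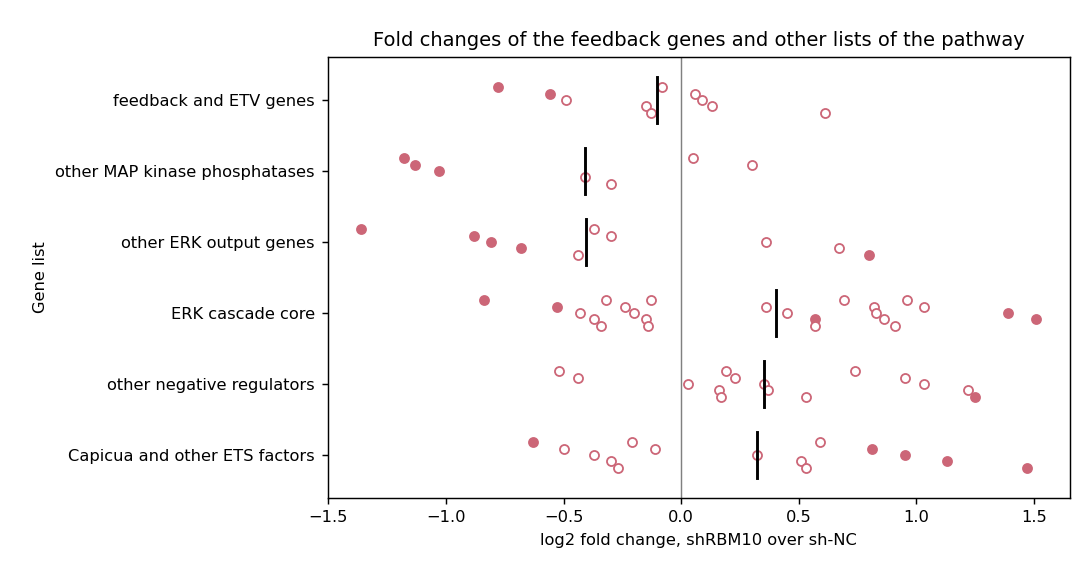
Log2 fold change of shRBM10 over sh-NC (horizontal axis) for each tested gene of the feedback and ETV set and of 5 other lists of the pathway (vertical axis). Filled points have an unadjusted edgeR p under 0.05, and black bars are list medians, which run from -0.41 for the other phosphatases and output genes to 0.40 for the cascade core.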

How the data were processed

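RNA-seq of 6 PC9 libraries (3 sh-NC, 3 shRBM10) was sequenced by BGI-Tech. The authors deposited estimated counts and TPM per gene (16306 genes) and per RefSeq transcript (76563), and the labels name build hg38. The aligner, counter and annotation are not given in the sources used here. Columns of shRBM10 libraries B and C show their group but match no sample title, so only the estimated counts were used for them. TPM was used for the 4 title-matched libraries, to rank genes, with the authors' mean for shRBM10. Left unused were 14 per-library columns of the gene table and 18 of the transcript table, and the 8 columns of group means in each table, apart from 1 in the gene table. The protocol text names 2 kits, 1 of them directional, without assigning them to libraries.

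Before testing, estimated counts were rounded. Genes kept by filterByExpr (12620) were scaled by TMM (factors 0.738 to 1.08) and tested with edgeR 4.0.16 (glmQLFit, glmQLFTest, Benjamini-Hochberg adjustment, R 4.3.3) and called where the adjusted p was under 0.05 and the log2 fold change beyond 1 in size. Transcript usage was tested with diffSpliceDGE. Exact permutation tests were two-sided, on log2 of normalized counts plus 0.5. The edgeR gene test with TMM and the transcript usage test were tried on simulated data that held no GC trend. The other steps were not tried on simulated data. Alternatives were DESeq2 1.42.0, limma-voom (limma 3.58.1), RLE, upper-quartile or no factors, other filters and thresholds, removal of a loess trend on GC content (known for 97.8% of genes tested, from GENCODE release 29 transcripts), and leaving out each library. Named genes were RBM10, the 10 genes, CIC, EGFR, and per list at most 3 genes with the smallest p among those with p under 0.05 and a log2 fold change beyond 1 in size. For transcripts, those with at least 5% of a gene's counts were named. The members and lists were chosen with earlier results of these data known. Depth was 16606390 to 18864243 counts per library, and intervals cover the spread between libraries.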

Additional observations from a re-analysis of the deposited data

How the results depend on the processing

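No paired analysis was possible because the columns of shRBM10 libraries B and C carry no replicate number. The column names do carry a letter, A to C in each group, with sh-NC replicates 1 to 3 in that order. By these letters sh-NC replicate 2 and shRBM10 library B would form a pair. Whether a shared letter marks a pair is not known, and pairing by letter was not tested. The number of the 10 genes called was 0 under all alternatives run, including an adjusted p under 0.05 with no fold limit and an adjusted p under 0.1 with it, and so was the number with shifted transcript usage. Over all genes edgeR called 2 and DESeq2 573. The number at an unadjusted p under 0.05 (2 with all libraries) was 1 with upper-quartile factors and 1 with library size only. Both were lower, beside 7.24% and 5.76% of all genes. When 1 library was left out it was 1 to 3, all lower. It was 1, ETV4, without sh-NC replicate 1 or 3 or without library A or B, beside 3.01% to 6.99% of all genes. It was 3 without sh-NC replicate 2 or library C, beside 12.7% and 15.9%. In these fits 0 were higher, beside 5.64% to 20.3% of all genes. The number without overlap (3) was 1 with library size only and 2 with upper-quartile factors, all lower, beside 11.3% and 14.1% of all genes. With the GC trend removed it was 4, all lower, beside 17.8%. When 1 library was left out it was 3 to 6. It was 6 without sh-NC replicate 2, all lower, beside 28.5% of all genes. Without library C it was 5, with 4 lower and 1 higher, beside 30.5% and 33.0%. Without any other library it was 3, all lower, beside 17.2% to 18.4%. With the GC trend removed and without sh-NC replicate 2, an alternative chosen after seeing the data, these numbers were 5, beside 15.7% lower and 13.5% higher of all genes, and 6, beside 27.3% and 22.1%. The cause was not tested. Library size only moved the median of all genes by 0.13 on the log2 scale, to 0.16, beside -0.00 for the 10 genes.

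DUSP5, SPRY2, ETV4 and ETV5 kept a negative log2 fold change in all 15 alternatives. In 14 of 150 cases the sign of another gene turned. With the GC trend removed, SPRY1 was at -0.25 and SPRED1 at -0.02, and without sh-NC replicate 2 as well SPRY1 was at -0.15, SPRED1 at -0.30 and SPRED2 at -0.24. With library size only DUSP4 was at 0.01. Without sh-NC replicate 3 DUSP4 was at 0.02. Without library B DUSP4 was at 0.08 and DUSP6 at 0.13. Without sh-NC replicate 2 SPRY4 was at -0.17 and SPRED2 at -0.31. Without library C SPRY1 was at -0.04, SPRY4 at -0.07 and SPRED2 at -0.05. When 1 library was left out, the log2 fold change lay between -0.31 and 0.08 for DUSP4, -0.35 and 0.13 for DUSP6, -0.04 and 0.18 for SPRY1, -0.17 and 0.31 for SPRY4, and -0.31 and 0.24 for SPRED2.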
